A study of Bos taurus with 6 samples.

Results

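The glucocorticoid receptor and 9 genes of its signalling, NR3C1, TSC22D3, FKBP5, KLF9, KLF15, ZBTB16, CRISPLD2, MAOA, HSD11B1 and HSD11B2, were followed in cultured bovine (Bos taurus) mammary epithelial cells. They are 10 of the 24616 genes measured, were found by symbol, and were assembled because TSC22D3 was higher in treated cells. The treated group, 3 RNA-seq libraries, had acetate (as NaAc, its sodium salt) and BHBA (beta-hydroxybutyrate, a ketone body) added, and the other 3 libraries are labelled only as control. The series describes them as a model of cells that differ in milk fat synthesis. Doses, the length of treatment and the culture medium are not stated in the labels, which name no glucocorticoid in either group and no control with matched sodium, so that the part of sodium cannot be told apart from that of acetate and BHBA. Whether replicates are separate cultures or animals is not labelled, so the errors cover the spread among libraries and that spread may be technical.

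Glucocorticoids such as cortisol enter cells and bind the receptor, a transcription factor that otherwise waits in the cytoplasm in a complex with the HSP90 chaperone. The bound receptor moves to the nucleus, raises the transcription of one set of genes and lowers that of many inflammatory genes. In the mammary gland glucocorticoids act together with prolactin in the onset and upkeep of milk secretion. Roles given below come mainly from work in human and rodent cells.

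The 6 libraries summed to between 787186 and 1134026 FPKM (fragments scaled by gene length and by all mapped fragments), with control replicate 1 at the top and treated replicate 1 at the bottom. FPKM keeps no read counts, so the depth is unknown. All 8 epithelial markers were present, with summed levels of 12507 to 14965 FPKM in treated and 15549 to 20353 FPKM in control libraries. The highest of them, KRT5, stood at 6025 to 6827 FPKM in treated and 8960 to 9385 FPKM in control libraries. CDH1 was also lower in every treated library, by 0.02 FPKM, and KRT14 was higher in every one. KRT7, KRT8, KRT18, KRT19 and EPCAM overlapped between the groups. Of the markers of other cell types, the fibroblast list summed to 33.2 to 43.0 FPKM in treated and 21.5 to 41.1 FPKM in control libraries, the leukocyte list to 7.08 to 8.38 FPKM in treated and 4.26 to 5.62 FPKM in control libraries, the endothelial list to 4.47 to 6.47 FPKM in treated and 3.21 to 5.26 FPKM in control libraries, and the adipocyte list to 1.23 to 2.32 FPKM in treated and 0.42 to 0.80 FPKM in control libraries. Most of the leukocyte sum was CD14, while PTPRC, which all leukocytes carry, reached at most 0.03 FPKM and ADIPOQ, which marks adipocytes, at most 0.07 FPKM. Of the 5 adipocyte markers, LEP carried the higher treated sum, while PLIN1, a lipid droplet coat protein, stood at 0.15, 0.13 and 0.23 FPKM in treated cells, against 0.31 FPKM in all 3 control libraries. The part of other cell types in the results was not tested, and in such bulk RNA a change in the share of a cell type and a change in RNA per cell cannot be told apart.

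The receptor itself, NR3C1 (ENSBTAG00000019472), was measured at moderate levels in every library. It stood at 9.03, 6.35 and 5.95 FPKM in treated cells, against 3.96, 6.79 and 7.95 FPKM in control cells. Both the highest and the lowest library were replicate 1 of their group, the groups overlapped, and the means were 7.11 ± 1.67 FPKM in treated and 6.23 ± 2.05 FPKM in control cells (SD, n = 3 each). The log2 fold change, taken on log2(FPKM + 0.5) as throughout and fitted with limma, was 0.21 ± 0.29 (SE). It was -0.066 without control replicate 1, so no direction is given for the receptor.

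TSC22D3 (ENSBTAG00000045877), also known as GILZ, encodes a leucine zipper protein that carries part of the anti-inflammatory action of glucocorticoids. It stood at 14.3, 10.2 and 12.1 FPKM in treated cells, against 3.43, 2.80 and 1.69 FPKM in control cells. Every treated library was higher than every control library, and this difference is the one by which the genes were chosen. The means were 12.2 ± 2.07 FPKM in treated and 2.64 ± 0.88 FPKM in control cells, a log2 fold change of 2.04 ± 0.26. Leaving out any single library kept it between 1.80 (without control replicate 3) and 2.23 (without control replicate 1).

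FKBP5 (ENSBTAG00000047502) encodes an HSP90 co-chaperone that lowers the receptor's affinity for hormone, and as a target of the receptor it forms a negative feedback loop. It stood at 32.4, 21.7 and 25.4 FPKM in treated cells, against 4.40, 8.44 and 9.94 FPKM in control cells. The lowest treated library was above the highest control library. The means were 26.5 ± 5.47 FPKM in treated and 7.59 ± 2.87 FPKM in control cells, a log2 fold change of 1.79 ± 0.31 that was 1.46 when control replicate 1 was left out and was 2.01 when control replicate 3 was.

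**Figure D1:**
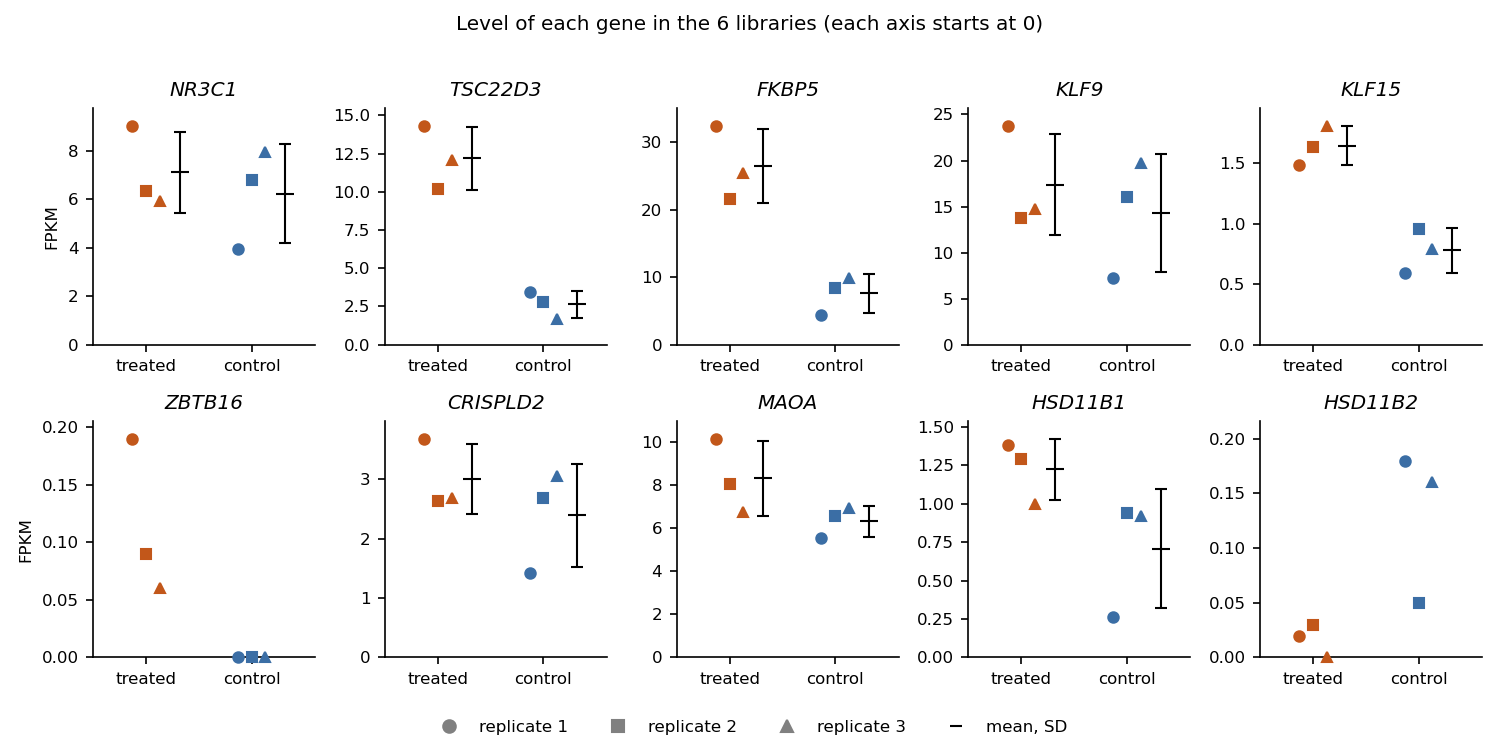
Level in FPKM (vertical axes, each starting at 0) of the receptor, its responders and the ligand enzymes in 3 treated (left, orange) and 3 control (right, blue) libraries, with mean and SD except for ZBTB16 and HSD11B2, which are listed at 0 in some libraries. TSC22D3, FKBP5, KLF15, ZBTB16 and HSD11B1 are higher in every treated than in every control library, as are 7.52% of all genes in the table. HSD11B2 is lower throughout, as are 3.70%. NR3C1, KLF9, CRISPLD2 and MAOA overlap. These overlapping genes, FKBP5 and HSD11B1 have their highest value in treated replicate 1 and their lowest in control replicate 1.

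KLF15 and KLF9 are Kruppel-like transcription factors that the receptor induces directly in many tissues, KLF15 acting in amino acid and lipid metabolism and KLF9 in growth arrest and differentiation. KLF15 (ENSBTAG00000008313) was low, at 1.49, 1.64 and 1.81 FPKM in treated cells, against 0.59, 0.96 and 0.79 FPKM in control cells. Its groups did not overlap, and its means were 1.65 ± 0.16 FPKM in treated and 0.78 ± 0.19 FPKM in control cells. The log2 fold change of 0.75 ± 0.24 understates a change at this level because of the 0.5 FPKM added, and it was 1.01 with 0.1 FPKM added. KLF15 passed the minimum mean of 1 FPKM over all libraries only through its treated libraries.

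KLF9 (ENSBTAG00000016229) did not share this pattern of levels. It stood at 23.8, 13.7 and 14.7 FPKM in treated cells, against 7.22, 16.0 and 19.7 FPKM in control cells. The groups overlapped, with control replicates 2 and 3 inside the treated range. The log2 fold change was 0.34 ± 0.40, or -0.072 without control replicate 1 and 0.62 without control replicate 3, so its direction is not settled.

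CRISPLD2 (ENSBTAG00000021176), a secreted glycoprotein known as a glucocorticoid target in airway smooth muscle cells, stood at 3.68, 2.64 and 2.68 FPKM in treated cells, against 1.42, 2.69 and 3.06 FPKM in control cells. Its groups overlapped, and the log2 fold change of 0.31 ± 0.29 was 0.04 without control replicate 1. MAOA (ENSBTAG00000016206), the mitochondrial monoamine oxidase whose promoter responds to glucocorticoids, stood at 10.1, 8.03 and 6.72 FPKM in treated cells, against 5.52, 6.54 and 6.91 FPKM in control cells. Only treated replicate 3 lay inside the control range, and the log2 fold change was 0.35 ± 0.19, or 0.21 without treated replicate 1.

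ZBTB16 (ENSBTAG00000011266), a zinc finger repressor also called PLZF that glucocorticoids induce strongly in human endometrial and airway cells, was close to the bottom of the scale. It was listed at 0.19, 0.09 and 0.06 FPKM in treated cells, against 0 in all 3 control libraries. A 0 in this table need not mean an absent transcript, since STIP1 and DNAJB1, which encode co-chaperones found in most cells, were also listed at 0 in all 6 libraries. No fold is given.

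The enzyme pair that sets how much active hormone reaches the receptor was low as well. HSD11B1 (ENSBTAG00000015086), which regenerates active cortisol from cortisone, stood at 1.38, 1.29 and 1.0 FPKM in treated cells, against 0.26, 0.94 and 0.92 FPKM in control cells. The groups were apart, but by only 0.06 FPKM between treated replicate 3 and control replicate 2. HSD11B2 (ENSBTAG00000005685), which inactivates cortisol, was listed at 0.02, 0.03 and 0 FPKM in treated cells, against 0.18, 0.05 and 0.16 FPKM in control cells. Its control libraries were all higher, at levels a few rounding steps of 0.01 FPKM above 0.

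Of the 10 genes, 7 reached a mean of 1 FPKM and entered the fit across 11615 genes. TSC22D3 was the 1 of the 7 past the threshold (limma, Benjamini-Hochberg adjusted p under 0.05), where 0.344% of all genes tested were called higher. By separation alone, 3 of the 7 tested were higher in every treated than in every control library, where 13.0% of all genes tested were, and 0 were lower throughout, where 6.69% were. Of these 3, TSC22D3 is the gene by which the set was chosen, and KLF15 passed the minimum only through its treated libraries. With the low genes included, 5 of the 10 (TSC22D3, FKBP5, KLF15, ZBTB16 and HSD11B1) were higher in every treated than in every control library, where 7.52% of all genes in the table were, and 1 (HSD11B2) was lower, where 3.70% were. Since the same contrast chose the genes, these shares are a description and no test. Of the 17 alternatives to the processing, TSC22D3 passed in 5, FKBP5 in 3 and KLF15 in 1 of 16. With 1 library left out, TSC22D3 and FKBP5 passed without control replicate 1, and 0 of the 7 passed without any one of the other 5 libraries.

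The order of the levels differed between groups. In treated cells FKBP5 stood highest, followed by KLF9 at 17.4 ± 5.53 FPKM, TSC22D3, MAOA at 8.30 ± 1.73 FPKM, NR3C1, CRISPLD2 at 3.00 ± 0.59 FPKM, KLF15, HSD11B1, ZBTB16 and HSD11B2. In control cells KLF9 stood highest at 14.3 ± 6.42 FPKM, followed by FKBP5, MAOA at 6.32 ± 0.72 FPKM, NR3C1, TSC22D3, CRISPLD2 at 2.39 ± 0.86 FPKM, KLF15, HSD11B1, HSD11B2 and ZBTB16. Library ranges of neighbours overlapped in treated cells for FKBP5 and KLF9, KLF9 and TSC22D3, and MAOA and NR3C1. They overlapped in control cells for KLF9 and FKBP5, FKBP5 and MAOA, MAOA and NR3C1, TSC22D3 and CRISPLD2, and KLF15 and HSD11B1.

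Several of the genes followed an order of the libraries that cut across the groups. KLF9 and CRISPLD2 ranked the 6 libraries exactly in the reverse order of their summed FPKM, and NR3C1 did so in 4 of 6. MAOA ranked 3 of 6 that way, FKBP5 2, TSC22D3 1 and KLF15 1. The order was not particular to these genes, since the coregulator EP300 also followed it exactly. The share of all genes that follow it was not counted. All 6 points share the normalization to mapped fragments, and the part of the library sums in these levels was not tested.

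**Figure D2:**
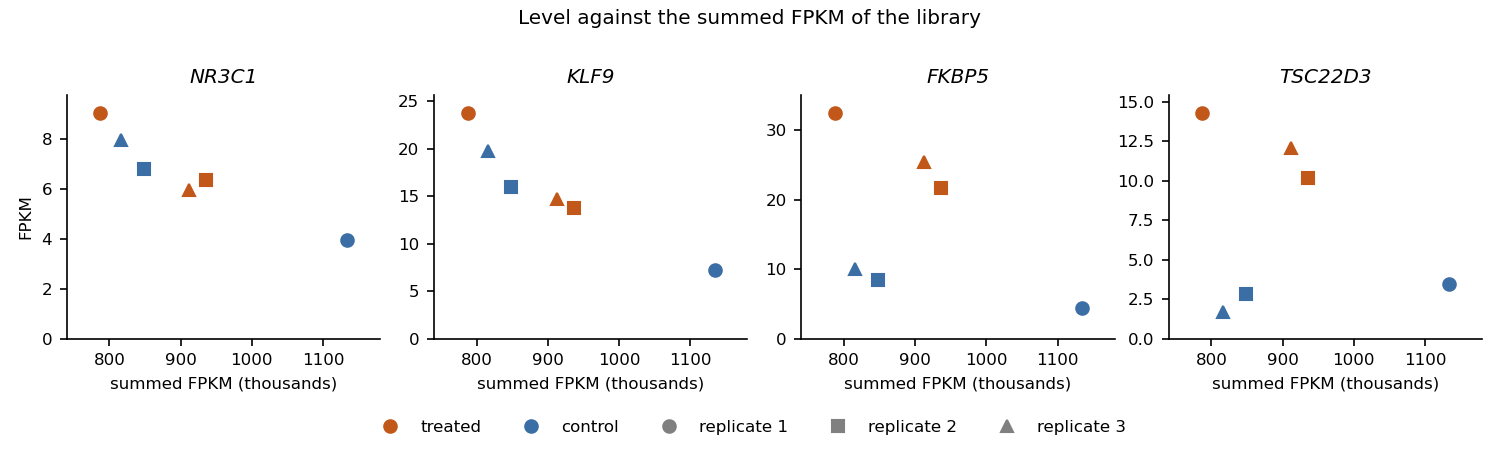
Level in FPKM (vertical axes, starting at 0) against the summed FPKM of the library (horizontal axes) for 4 genes, with treated libraries in orange and control libraries in blue. KLF9 is lower at each higher sum across both groups and NR3C1 nearly so. FKBP5 and TSC22D3 lie higher in every treated than in every control library, as do 13.0% of all genes tested. Control replicate 1, at 1134026 FPKM, has no treated library at a similar sum, the highest being treated replicate 2 at 936152 FPKM.

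Dividing each responder by the receptor in the same library, a measure chosen after the values were seen, gave ratios that do not depend on a factor common to both genes. FKBP5 over NR3C1 was 3.59, 3.41 and 4.27 in treated cells, against 1.11, 1.24 and 1.25 in control cells. The means were 3.76 ± 0.45 in treated and 1.2 ± 0.078 in control cells (SD), a ratio of 3.13. TSC22D3 over NR3C1 was 1.58, 1.6 and 2.03 in treated cells, against 0.87, 0.41 and 0.21 in control cells. KLF15 over NR3C1 was 0.17, 0.26 and 0.30 in treated cells, against 0.15, 0.14 and 0.10 in control cells, so that treated replicate 1 came close to the control libraries. KLF9 over NR3C1 averaged 2.42 ± 0.24 in treated and 2.22 ± 0.35 in control cells and overlapped. CRISPLD2 over NR3C1 averaged 0.42 ± 0.02 in treated and 0.38 ± 0.02 in control cells. It did not overlap, at 0.41, 0.42 and 0.45 in treated against 0.36, 0.40 and 0.38 in control cells, although the levels of CRISPLD2 did. The gap was narrow, between 0.408 in treated replicate 1 and 0.396 in control replicate 2. The share of all genes whose ratio to NR3C1 separates the groups was not counted.

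**Figure D3:**
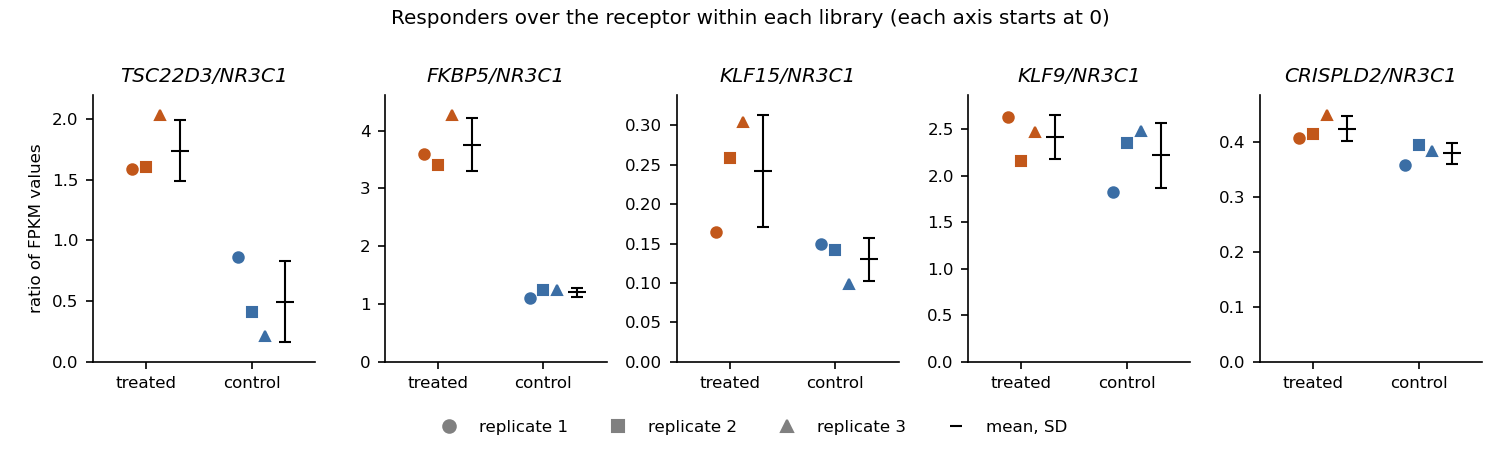
Ratio of the FPKM of 5 responders to that of NR3C1 within each library (vertical axes, starting at 0), in treated (left, orange) and control (right, blue) cells with mean and SD. FKBP5 over NR3C1 averages 3.76 in treated and 1.2 in control cells, while KLF9 over NR3C1 overlaps between the groups.

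The genes nearest to TSC22D3 in profile, by the mean absolute difference of log2 values centred over the 6 libraries, were TMEM37 (0.16), TPPP3 (0.19), P4HA3 (0.22), NPAS1 (0.24) and SUSD3 (0.24). TMEM37, P4HA3 and SUSD3 reached the minimum mean of 1 FPKM only through their treated libraries. In control libraries they stood at no more than 0.54, 0.36 and 0.98 FPKM. All were matched to the gene by which the set was chosen, so their likeness is a description and no test. FKBP5 was the 61st nearest of 11614 other genes at 0.42, and NR3C1 ranked 2745 of 11614 at 0.92. The genes nearest to NR3C1 were MAP4K5 (0.023), ZZEF1 (0.025), PPIL4 (0.026), RCOR1 (0.026) and ZCCHC14 (0.027), all with their highest value in treated replicate 1 and their lowest in control replicate 1. CRISPLD2 was the 126th nearest to NR3C1 at 0.061.

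Beyond these 10 genes, 133 further genes of the pathway were found in the table, of which 97 were tested. Their lists were chosen with earlier results of these data known. The counts and shares for these lists, here and below, are therefore a description and no independent test of the pathway. PER1, IL6 and SCNN1A rose, and 0 fell (limma, adjusted p under 0.05, where 0.474% of all genes tested were called, and where 24 of the 97 had an unadjusted p under 0.05, against 11.0% of all genes tested). Among textbook targets that glucocorticoids induce, 21 of 30 tested were on the higher side, with a median log2 fold change of 0.30, against 61.9% and 0.08 over all genes tested. With trimmed-mean factors 18 of 30 were on that side, with a median of 0.24, against 50.4% and 0.0028 over all genes. Without control replicate 1 the median was 0.14, against -0.0026 over all genes, and without treated replicate 1 it was 0.20, against 0.055. With a minimum mean of 5 FPKM it was 0.11, against 0.060. Without a minimum 26 of 42 were on the higher side and 3 at 0 difference, with a median of 0.075, against 38.7% and 0 over all 24616 genes, of which 8864 had no difference. PDK4, on the higher side, reached the minimum only through its treated libraries, at 1.70 ± 0.51 FPKM in treated and 0.85 ± 0.28 FPKM in control cells. PER1, a clock repressor whose promoter the receptor binds directly, was the 1 that rose. It stood at 18.5, 18.3 and 17.4 FPKM in treated cells, against 6.82, 7.21 and 6.48 FPKM in control cells, with little spread in either group. Its log2 fold change was 1.34 ± 0.12 (limma adjusted p = 0.0220). It stayed between 1.30 and 1.38 when single libraries were left out. PER1 passed in 10 of 17 alternatives, IL6 in 9 and SCNN1A in 11. All 3 passed without control replicate 1 and none of them without any one of the other 5 libraries (limma adjusted p from 0.0659 to 0.205).

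Other induced targets did not pass. SGK1, a kinase induced by glucocorticoids and aldosterone, averaged 96.7 ± 1.68 FPKM in treated and 65.6 ± 14.3 FPKM in control cells (log2 fold change 0.58 ± 0.17, limma adjusted p = 0.272). RGS2, a regulator of G protein signalling, and ANGPTL4, an inhibitor of lipoprotein lipase, lay on the other side. RGS2 averaged 28.8 ± 3.89 FPKM in treated and 54.3 ± 4.13 FPKM in control cells (-0.91 ± 0.14, adjusted p = 0.0670), and ANGPTL4 8.06 ± 1.10 FPKM in treated and 16.2 ± 2.08 FPKM in control cells (-0.97 ± 0.17, adjusted p = 0.0810). CDKN1C, DUSP1 and LPIN1, named after their values were seen, had log2 fold changes of 1.47 ± 0.33, 0.67 ± 0.24 and 0.93 ± 0.32 without passing. Liver targets of the receptor were at the bottom of the scale, with TAT at no more than 0.14 FPKM, PCK1 at no more than 0.02 FPKM and G6PC listed at 0 in all 6 libraries.

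Of the inflammatory genes known to be repressed by glucocorticoids, 10 of 12 tested were on the lower side, against 38.1% of all genes tested (9 of 12 against 28.8% with rescaling to a common sum), with a median log2 fold change of -0.35, and 0 passed in that direction, where 0.129% of all genes did and 4 had an unadjusted p under 0.05. The median was -0.63 without treated replicate 3 and -0.54 without control replicate 1, and 8 of 12 were on the lower side without treated replicate 1. Without a minimum level 11 of 16 were on the lower side, against 25.3% of all genes, with a median of -0.24. Of the 10 tested on the lower side, NOS2 reached the minimum only through its control libraries. It averaged 0.84 ± 0.41 FPKM in treated and 1.75 ± 0.22 FPKM in control cells, and is also 1 of the 4 above. The 1 that passed rose: IL6, an inflammatory cytokine and textbook target of repression, stood at 192, 190.3 and 236 FPKM in treated cells, against 80.3, 87.4 and 80.0 FPKM in control cells (log2 fold change 1.31 ± 0.13, limma adjusted p = 0.0249). The chemokine CCL5 averaged 15.3 ± 5.56 FPKM in treated and 62.4 ± 27.0 FPKM in control cells (-1.99 ± 0.39, adjusted p = 0.109). CCL2 averaged 550.5 ± 41.9 FPKM in treated and 828 ± 86.2 FPKM in control cells (-0.59 ± 0.14, adjusted p = 0.184), and TNF 2.96 ± 0.83 FPKM in treated and 5.32 ± 1.07 FPKM in control cells (-0.76 ± 0.25, adjusted p = 0.322).

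The chaperone machinery that holds the unbound receptor showed small differences. Of 16 tested members 0 passed (limma, adjusted p under 0.05), where 0.474% of all genes tested were called. An unadjusted p under 0.05 was reached by 2 of the 16, against 11.0% of all genes tested. The median log2 fold change was 0.03, against 0.08 over all genes tested. HSPA1A, which has a near-identical copy and is therefore uncertain, stood at 0.63 ± 0.16 (adjusted p = 0.205), and CDC37, a co-chaperone of HSP90, at 0.35 ± 0.12 (adjusted p = 0.335). FKBP4, the co-chaperone that FKBP5 competes with, averaged 130.5 ± 13.9 FPKM in treated and 111 ± 16.3 FPKM in control cells (0.23 ± 0.15, adjusted p = 0.726). The ratio of FKBP5 to FKBP4 was 0.28, 0.15 and 0.19 in treated cells, against 0.035, 0.075 and 0.10 in control cells, so that FKBP4 transcripts stayed the more abundant per length in every library. Of 22 coregulators tested, 0 passed (limma), where 0.474% of all genes tested did. Of these 22, 1 had an unadjusted p under 0.05, against 11.0% of all genes tested. HEXIM1, a transcription elongation inhibitor that binds the receptor, stood at 0.33 ± 0.13 (adjusted p = 0.398), SMARCA4, a chromatin remodelling ATPase, at -0.25 ± 0.11 (adjusted p = 0.527) and STAT5B at 0.45 ± 0.29 (adjusted p = 0.715), or 0.15 without control replicate 1.

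Relatives of the receptor lay below the minimum. NR3C2, the mineralocorticoid receptor, which also binds cortisol, stood at 0.31, 0.16 and 0.07 FPKM in treated cells, against 0.03, 0.09 and 0.02 FPKM in control cells, and the groups overlapped. ESR1 and ESR2 were listed at 0 in all 6 libraries. Of NR3C1, NR3C2, ESR1 and ESR2, only NR3C1 reached the minimum mean of 1 FPKM.

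Among genes of steroid synthesis and metabolism, 5 of 6 tested were on the higher side, against 61.9% of all genes tested, and 0 passed (limma, 3 at an unadjusted p under 0.05, where 11.0% of all genes were). With trimmed-mean factors 4 of 6 were on that side, and without a minimum level 6 of 11 were, with 3 at 0 difference. CYP11A1, the side-chain cleavage enzyme that starts steroid synthesis from cholesterol, stood at 265, 347 and 308 FPKM in treated cells, against 183, 119.9 and 122 FPKM in control cells (log2 fold change 1.13 ± 0.21, limma adjusted p = 0.0933). The row described as a 3 beta-hydroxysteroid dehydrogenase, listed here as HSD3B1, stood at 128, 146 and 96.8 FPKM in treated cells, against 52.6, 59.3 and 42.7 FPKM in control cells (1.25 ± 0.20, adjusted p = 0.0686). Of the 6 tested, 3 (CYP11A1, HSD3B1 and HSD11B1L) were higher in every treated than in every control library, as were 13.0% of all genes tested. The 1 lower throughout was H6PD, as were 6.69% of all genes tested. CYP11A1 passed with quantile normalization, after rescaling to a common sum, when library sums entered as a covariate, and when control replicate 1 was left out. STAR, which delivers cholesterol to CYP11A1, reached at most 0.38 FPKM, and CYP17A1, needed for cortisol, at most 0.43 FPKM. HSD11B1L, a relative of HSD11B1, averaged 12.9 ± 1.44 FPKM in treated and 6.78 ± 2.27 FPKM in control cells (0.92 ± 0.25, adjusted p = 0.225). H6PD, which supplies HSD11B1 with NADPH and is named after its values were seen, averaged 10.4 ± 0.39 FPKM in treated and 14.1 ± 2.82 FPKM in control cells (-0.40 ± 0.17, adjusted p = 0.459).

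Of the paralogs of TSC22D3, TSC22D1 and TSC22D4 were more abundant per length than TSC22D3 in every library. TSC22D1 averaged 119.5 ± 13.2 FPKM in treated and 85.7 ± 7.46 FPKM in control cells (log2 fold change 0.48 ± 0.13, limma adjusted p = 0.237), and TSC22D4 110.4 ± 19.4 FPKM in treated and 90.7 ± 16.1 FPKM in control cells (0.28 ± 0.19, adjusted p = 0.724). TSC22D2, at 8.21 ± 2.38 FPKM in treated and 6.37 ± 2.61 FPKM in control cells (0.39 ± 0.37, adjusted p = 0.844), stood at 0.03 without control replicate 1. Relative to TSC22D1 in the same library, TSC22D3 was 0.13, 0.075 and 0.11 in treated cells, against 0.038, 0.031 and 0.022 in control cells.

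**Figure D4:**
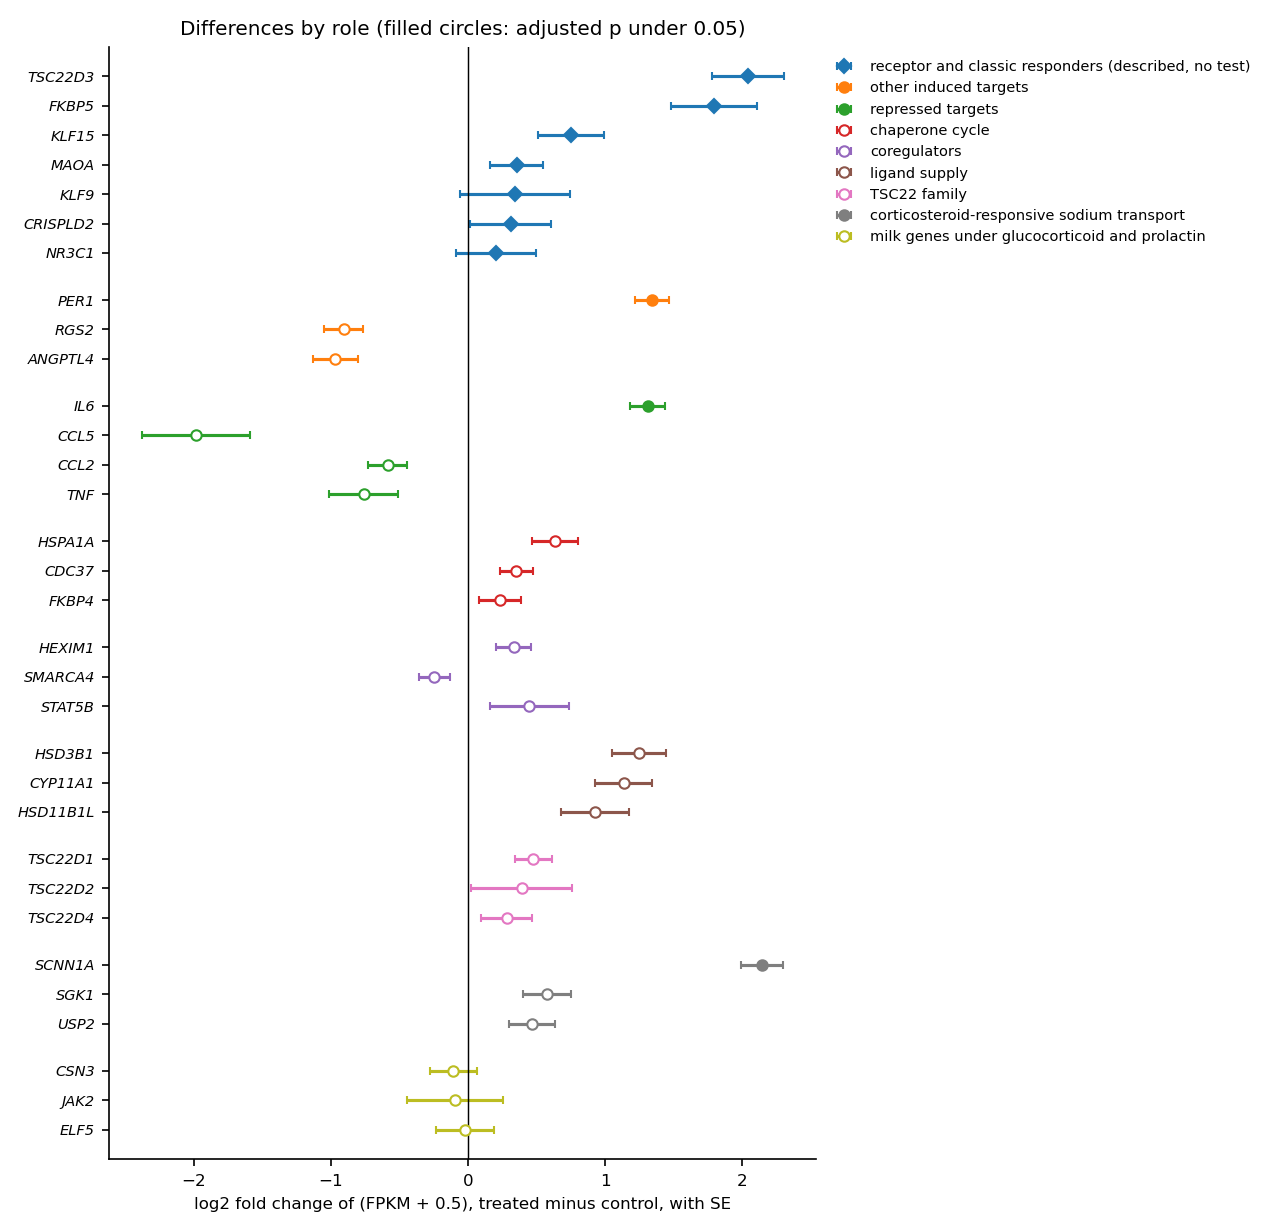
Log2 fold change of (FPKM + 0.5), treated minus control, with SE (horizontal axis) for the 7 tested members and the named genes of the pathway, grouped by role from top to bottom. Filled circles mark the 3 pathway genes with an adjusted p under 0.05 (PER1, IL6 and SCNN1A), and open circles those that did not pass. Diamonds mark the members, assembled because TSC22D3 was higher in treated cells. The lists behind the circles were also chosen with earlier results of these data known.

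Corticosteroids also act on sodium transport, where TSC22D3 and SGK1 are known to raise the activity of the epithelial sodium channel. SCNN1A, the alpha subunit of that channel, rose and stood at 29.8, 37.0 and 28.3 FPKM in treated cells, against 7.5, 6.27 and 6.50 FPKM in control cells (log2 fold change 2.14 ± 0.15, limma adjusted p = 0.0107). The beta and gamma subunits SCNN1B and SCNN1G reached at most 0.07 and 0.48 FPKM. USP2, a deubiquitinase, stood at 0.47 ± 0.17 (adjusted p = 0.360). Of the milk genes on which glucocorticoids act with prolactin, 0 of 3 tested passed (limma), where 0.474% of all genes tested did. An unadjusted p under 0.05 was reached by 0 of the 3, against 11.0% of all genes tested. CSN3, JAK2 and ELF5 had log2 fold changes of -0.11 ± 0.17, -0.10 ± 0.35 and -0.02 ± 0.21, each of which turned positive when certain libraries were left out. The caseins CSN1S1, CSN1S2 and CSN2 were listed at 0 in all 6 libraries, and the prolactin receptor gene PRLR did not exceed 0.04 FPKM.

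**Figure D5:**
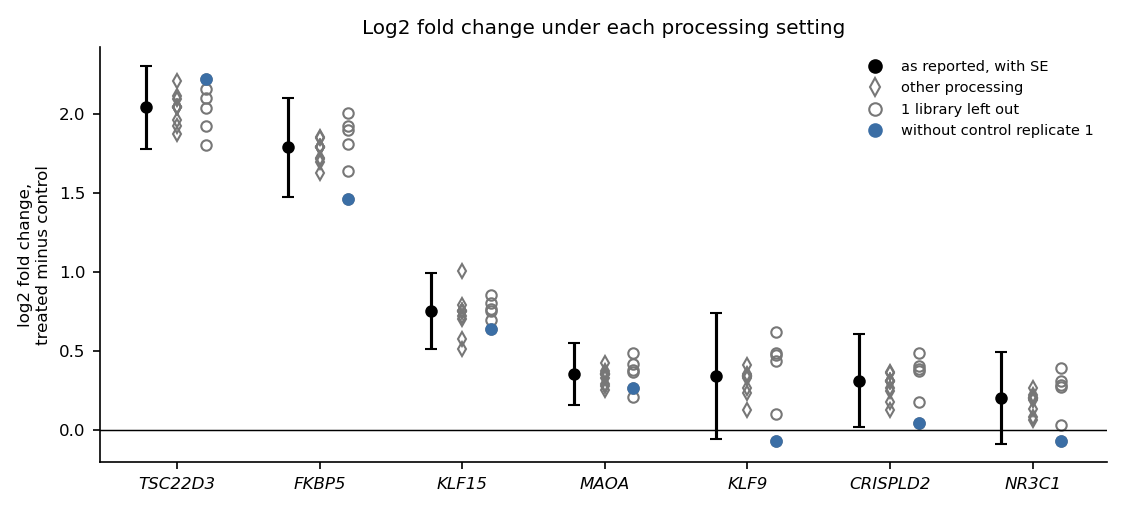
Log2 fold change of the 7 tested members (vertical axis, treated minus control) as reported with its SE and under each alternative setting, with the value without control replicate 1 in blue. TSC22D3, FKBP5 and KLF15 stay above 0 throughout, and NR3C1 and KLF9 stand at -0.066 and -0.072 without control replicate 1.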

How the data were processed

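RNA was measured in 6 libraries, 3 treated and 3 control, each assigned to its column by name and to its group by title. Values are FPKM, deposited by the authors for 24616 genes with 2 decimals. Per the labels' protocols, poly(A) RNA was made into TruSeq libraries and sequenced paired-end on an Illumina HiSeq instrument. Per the submitters' processing notes the build was ARS-UCD1.2, and DESeq2 is named with no role. The sources used here give no aligner, counting tool, annotation or strand setting, so overlapping and near-identical genes are uncertain. The smallest value above 0 was the rounding step of 0.01 FPKM, so reads could not be recovered and no interval for depth is given.

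Symbols came from the table, and 7 were added from its descriptions (5), a RefSeq synonym or a RefSeq protein accession (ARS-UCD2.0, names only). The 11615 genes that averaged 1 FPKM or more were compared as log2(FPKM + 0.5) with limma 3.58.1 in R 4.3.3 (mean-variance trend, moderated SE, 2-sided, Benjamini-Hochberg over all genes tested, threshold 0.05), with no covariate or block. The fit was tested on simulated data. Tables and plots used Python 3.11.15 and matplotlib 3.10.9. The 10 members and the 9 pathway lists were chosen with earlier results of these data known. Named were all members, in each list every gene past the threshold and up to 3 others by smallest p, all TSC22 paralogs and steroid receptors, and the 5 nearest profiles to TSC22D3 and NR3C1. A few genes this rule names are not reported here. Liver targets, CDKN1C, DUSP1, LPIN1, PDK4, NOS2, EP300, H6PD, STAR, CYP17A1, SCNN1B, SCNN1G, PRLR, the caseins at 0, STIP1, DNAJB1 and the markers were named after their values were seen. The 17 alternatives changed the pseudocount, filter, scaling (quantile, common sum, unweighted trimmed-mean factors computed from FPKM), variance estimate, block or covariate, or left out 1 library.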

Additional observations from a re-analysis of the deposited data

How the results depend on the processing

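Over all genes 55 passed, 40 higher and 15 lower. Quantile normalization gave 35 higher and 27 lower. The count was 25 without a filter on low values, 33 with a mean of at least 5 FPKM, 23 after rescaling to a common sum and 2089 when library sums entered as a covariate. Leaving out single libraries gave 0 to 205, with 205 without control replicate 1. Of the 10 receptor and responder genes 1 passed. This became 0 without a filter, with a mean of at least 5 FPKM, after rescaling, with trimmed-mean factors and with the robust variance estimate (limma, 2 to 5 of them at an unadjusted p under 0.05), 3 with the covariate, and 0 to 2 when single libraries were left out. With quantile normalization the 1 that passed was FKBP5 and not TSC22D3. Of the other pathway genes 3 passed, 5 with quantile normalization, 28 with the covariate, and 0 to 7 when single libraries were left out. The causes were not tested, and fits without a library have fewer residual degrees of freedom.

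The labels give both groups replicate numbers 1 to 3. Deviations of same-numbered libraries from their group means correlated at -0.73, -0.37 and -0.38, and 0 of 6 libraries correlated best with its own number. With 3 libraries a group, deviations from a group mean depend on each other. These correlations therefore cannot settle whether same-numbered libraries belong together. With the replicate number as a block 0 genes, 0 of the 10 and 0 pathway genes passed (limma, 584, 2 and 18 at an unadjusted p under 0.05).

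With single libraries left out, log2 fold changes ran from -0.066 to 0.39 for NR3C1, from -0.072 to 0.62 for KLF9, from -0.20 to 0.038 for CSN3, from -0.45 to 0.13 for JAK2 and from -0.14 to 0.15 for ELF5, which stood at 0.041 after rescaling. No other tested gene named by rule from the receptor, its responders and the pathway lists changed sign under these alternatives.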

Other observations

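Several low genes near the pathway, all named after their values were seen, separated the groups without reaching the minimum mean of 1 FPKM. PTGS2, the inducible cyclooxygenase that glucocorticoids repress, stood at 0.72, 0.55 and 0.40 FPKM in treated cells, against 0.10, 0.26 and 0.21 FPKM in control cells. CSF2, a cytokine also known to be repressed, stood at 0.64, 0.71 and 1.31 FPKM in treated cells, against 0.19, 0.53 and 0.18 FPKM in control cells. Both were higher in every treated than in every control library, as were 7.52% of all genes in the table. The repressed targets MMP1 and MMP13, also below the minimum, overlapped between the groups. MMP1 averaged 1.02 ± 0.90 FPKM in treated and 0.19 ± 0.32 FPKM in control cells. MMP13 lay on the other side, at 0.25 ± 0.09 FPKM in treated and 0.76 ± 0.57 FPKM in control cells. LEP, which encodes leptin and is known from human adipocytes to respond to glucocorticoids, stood at 1.55, 1.97 and 1.0 FPKM in treated cells, against 0.07, 0.11 and 0.23 FPKM in control cells, while ADIPOQ was at most 0.07 FPKM. None of these differences was tested.

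The metallothionein row listed as MT1E, a metal-binding protein whose genes glucocorticoids and metals induce, was among the targets highest in level, at 10661, 14161 and 13297 FPKM in treated cells, against 21218, 11323 and 9705 FPKM in control cells. Its value in control replicate 1 was higher than in all other libraries, and its log2 fold change was -0.07. Metallothionein genes have close paralogs, so this row is uncertain.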
